A study of Arabidopsis thaliana with 24 samples.

Results

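The data described here are the transcript levels of Arabidopsis thaliana rosettes at midnight (0 h), compared between 3 arrays of water-limited plants and 3 arrays of well-watered plants. These 6 arrays were taken by their labels from a series of 24 Affymetrix arrays, which sampled the same water regimes also at pre-dawn (6 h), midday (12 h) and late day (18 h). The comparison covered 11926 of 22746 probe sets other than controls, namely those with a log2 value of 5 or more in at least 3 of the 24 arrays, whichever arrays these were. All plants were wild type of the accession Columbia-0, grown in Sunshine mix under a 12 h photoperiod, and whole rosettes were taken at an age of 32 days. Water-limited plants had been watered for 28 days and then received no water for 4 days. Well-watered plants had received water throughout the 32 days. Each group holds 3 arrays described as biological replicates, and the labels do not say how many plants went into an array.

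In a rosette at night, starch stored by day is broken down to sugars, and transcripts of genes that respond to sugar supply, to the circadian clock and to darkness follow a daily course. Iron uptake and distribution also follow the time of day. When iron is short, leaves raise a set of transcripts that includes short peptides of the IRONMAN type and transcription factors of the bHLH class, which act on genes of iron transport and storage. Withdrawal of water acts on leaves through the hormone abscisic acid, through turgor and through slower growth.

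Values are log2 expression values as deposited. Differences are water-limited minus well-watered, SE is the standard error of a difference, and the adjusted p comes from a limma model of the 24 arrays with Benjamini-Hochberg adjustment over the 11926 probe sets. A probe set is called where the adjusted p was below 0.05. In a whole-rosette sample, fewer cells of a type and less RNA per cell cannot be told apart.

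The medians of the 24 arrays lay between 4.66 and 4.86, and Pearson correlations between replicate arrays at midnight lay between 0.968 and 0.984. The 3-prime minus 5-prime difference of the GAPDH control, a measure of RNA integrity, was 1.52, 1.49 and 1.60 in water-limited arrays, against 1.64, 1.39 and 1.42 in well-watered arrays at midnight, so the groups overlapped. That of the actin control was 4.36, 4.08 and 5.19 in water-limited arrays, against 4.39, 4.52 and 4.62 in well-watered arrays, and that of the ubiquitin control was 1.23, 1.24 and 1.46 against 1.28, 1.31 and 1.23. Water-limited midnight replicate 3 was the highest of the 24 arrays in both. The mesophyll marker RCA, the Rubisco activase, lay between 13.65 and 14.41 in water-limited and between 14.39 and 14.48 in well-watered arrays. It was the 1 of 8 mesophyll markers that the annotation names. The guard cell lineage regulator FMA, 1 of 8 markers named, lay between 5.79 and 6.30 against 5.73 to 5.98. The 2 root markers named of 10, AT1G30870 and AT3G01190, and XTH21, the 1 of 5 named from the phloem list, were listed at the floor of the table, 2.2, in all 6 midnight arrays. None of 10 flower and 6 epidermis markers was named, so these tissues were not checked. The water-limited late-day group had the largest spread among its replicates (mean variance 0.177, against 0.108 in water-limited and 0.0873 in well-watered arrays at midnight), and it enters the shared estimate of the spread.

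At midnight, 46 of 11926 probe sets were called, which is 0.386% of those tested. Of these, 13 (0.109%) were higher and 33 (0.277%) lower in water-limited rosettes, and 33 of the 46 differed by at least 2-fold, 10 of them higher and 23 lower. Among called probe sets assigned to 1 gene, the deepest fall was that of an iron-deficiency transcript and the largest rise that of an asparaginase transcript. The 3 arrays of one regime lay entirely above the 3 of the other in all 46, a separation that 15.5% of all tested probe sets showed (5.97% higher, 9.48% lower). The direction of the calls depended on the scaling of the arrays: with each array centred on its median, 24 were higher and 24 lower, and with quantile normalization 22 were higher and 27 lower. With the GAPDH, actin and ubiquitin controls as covariates, 127 probe sets were called, 42 higher and 85 lower, among them all 46; how far RNA integrity enters the differences was not tested beyond that. Unadjusted p was below 0.05 in 1591 probe sets (13.3%), 639 higher and 952 lower. Of all differences, 46.1% were above and 53.9% below 0. Their median was -0.02, and the median SE of a difference was 0.20. Of the 46, 18 are assigned to exactly 1 gene, 4 higher and 14 lower, and 28 have no gene in the annotation used.

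**Figure D1:**
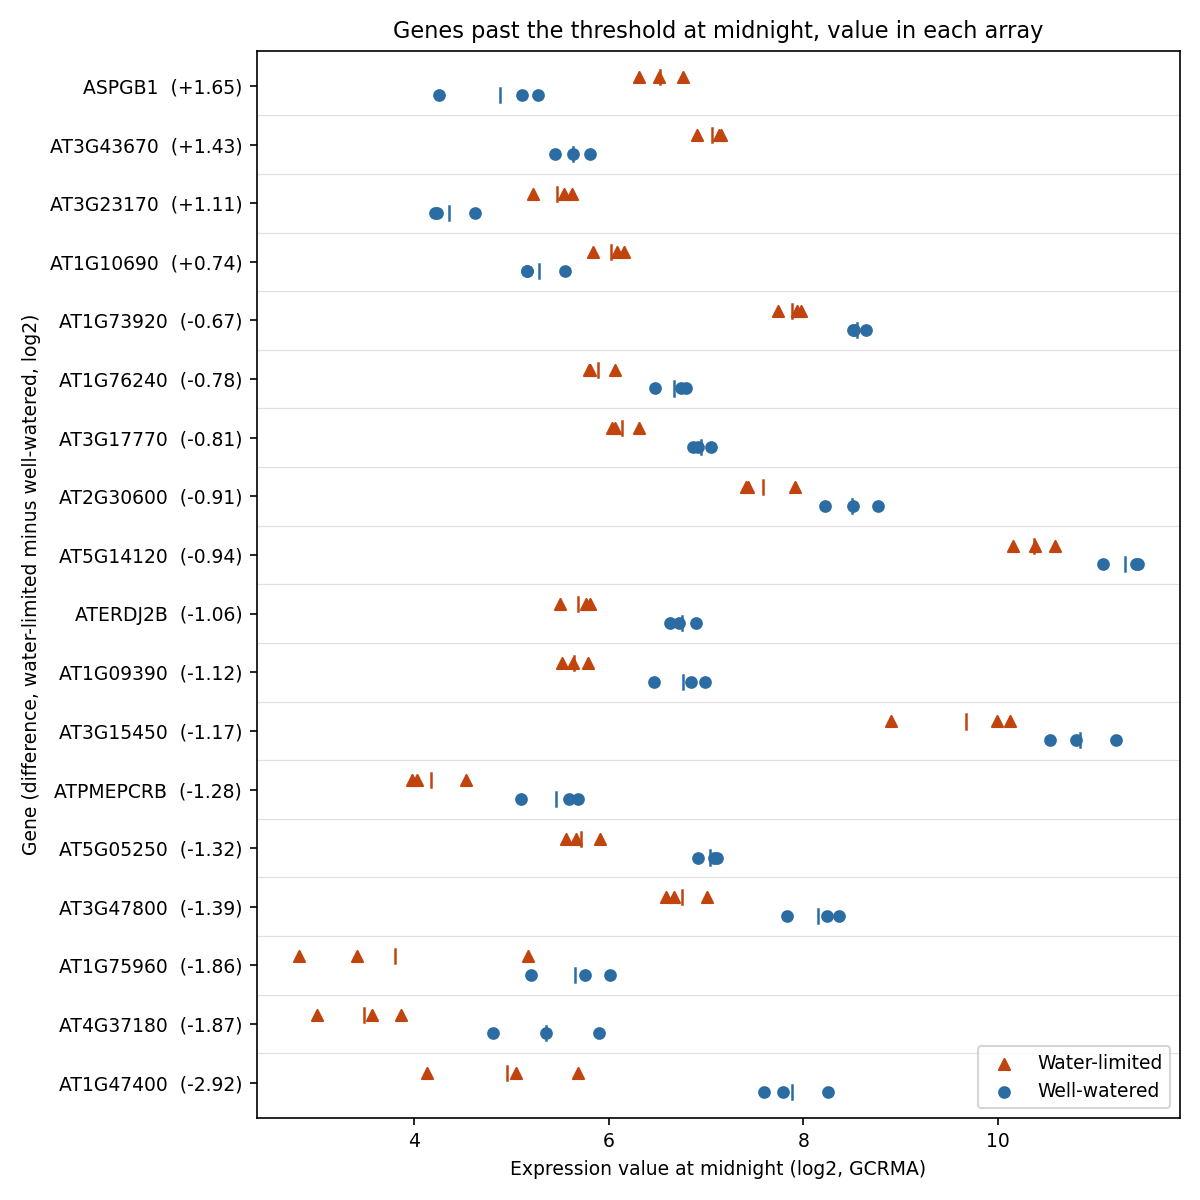
Log2 expression values at midnight of the 18 genes past the threshold; each triangle is a water-limited array, each circle a well-watered array, and the short bars are group means of 3 arrays. In every gene the triangles and circles do not overlap, and the differences run between 1.65 for ASPGB1 and -2.92 for AT1G47400.

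AT1G47400, the called gene with the deepest fall, encodes a short IRONMAN-type peptide induced by iron deficiency. Its values were 4.13, 5.05 and 5.68 in water-limited arrays, against 7.60, 8.25 and 7.79 in well-watered arrays. Even the highest water-limited array lay far below the lowest well-watered one. The difference was -2.92 (SE 0.33, 7.59-fold lower, adjusted p = 0.000111). AT5G05250, an iron-deficiency-responsive gene whose product has no assigned function, had 5.57, 5.67 and 5.91 in water-limited arrays, against 6.92, 7.08 and 7.12 in well-watered arrays. Both groups were tight, with SDs of 0.18 and 0.10, and the difference was -1.32 (SE 0.19, 2.50-fold lower, adjusted p = 0.00127).

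Of 36 genes in the iron deficiency list, the annotation names 12 and 5 were tested. Of these, 2 fell, none rose and 3 were not called, where 0.277% of all tested probe sets were called lower. The list was drawn up with the fall of AT1G47400 known, so it is no independent evidence of a direction. PYE (AT3G47640), a bHLH regulator of the iron response, had 5.08, 5.98 and 4.49 in water-limited arrays, against 6.35, 6.31 and 6.19 in well-watered arrays. All 3 water-limited arrays were below the well-watered ones, but they were scattered, and the difference of -1.10 (SE 0.25) had an adjusted p of 0.0514. AT3G56360 differed by -0.46 (adjusted p = 0.24) and AT3G07720, a kelch-repeat gene, by 0.16 (adjusted p = 0.794), each with overlapping groups. The median difference of the 5 was -1.10, against -0.02 over all probe sets tested.

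A further bHLH gene of the iron response, BHLH101 (AT5G04150), did not pass the filter on low values, as its highest value in any array was 4.63. It is given here because its values were seen. Its values were 2.52, 2.45 and 2.55 in water-limited arrays, against 4.42, 4.63 and 4.37 in well-watered arrays at midnight. The water-limited values lie just above the floor of the table, which limits the size of the difference and can narrow the spread behind its p. In a model of all 22746 probe sets the difference was -1.97 (SE 0.18, adjusted p = 3.83e-05), and it was -0.25 at pre-dawn, -0.70 at midday and -0.69 at late day. The midnight difference minus the mean of these 3 was -1.42 (adjusted p = 0.0149 in the same model). In well-watered plants its mean was 4.47 ± 0.14 at midnight, 2.81 ± 0.42 at pre-dawn, 3.57 ± 0.18 at midday and 3.64 ± 0.29 at late day, whereas water-limited means stayed between 2.51 and 2.95 (SD, n = 3 each). The other named members that failed the filter differed by -0.22 to 0.11 at midnight in that model.

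Over the day, AT1G47400 and AT5G05250 were lower in water-limited rosettes at midnight and pre-dawn. The means of AT1G47400 in water-limited plants were 4.95 ± 0.78 at midnight, 6.60 ± 0.33 at pre-dawn, 8.08 ± 0.44 at midday and 7.31 ± 0.47 at late day (SD, n = 3 each). In well-watered plants they were 7.88 ± 0.33, 7.98 ± 0.31, 8.14 ± 0.38 and 7.36 ± 0.28 at the same times. In well-watered rosettes the means of AT1G47400 at midnight, pre-dawn and midday differed by less than the SD of a group, and the midnight mean of water-limited rosettes was the lowest of all 8 groups. The difference of AT1G47400 was -1.38 at pre-dawn (adjusted p = 0.0164), -0.06 at midday and -0.05 at late day (adjusted p = 0.999 and 0.982). AT5G05250 differed by -0.67 at pre-dawn (adjusted p = 0.0344), 0.16 at midday and 0.47 at late day (adjusted p = 0.999 and 0.425). PYE differed by -0.58 at pre-dawn, -0.21 at midday and 0.01 at late day, and was called at none of the 4 times.

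**Figure D2:**
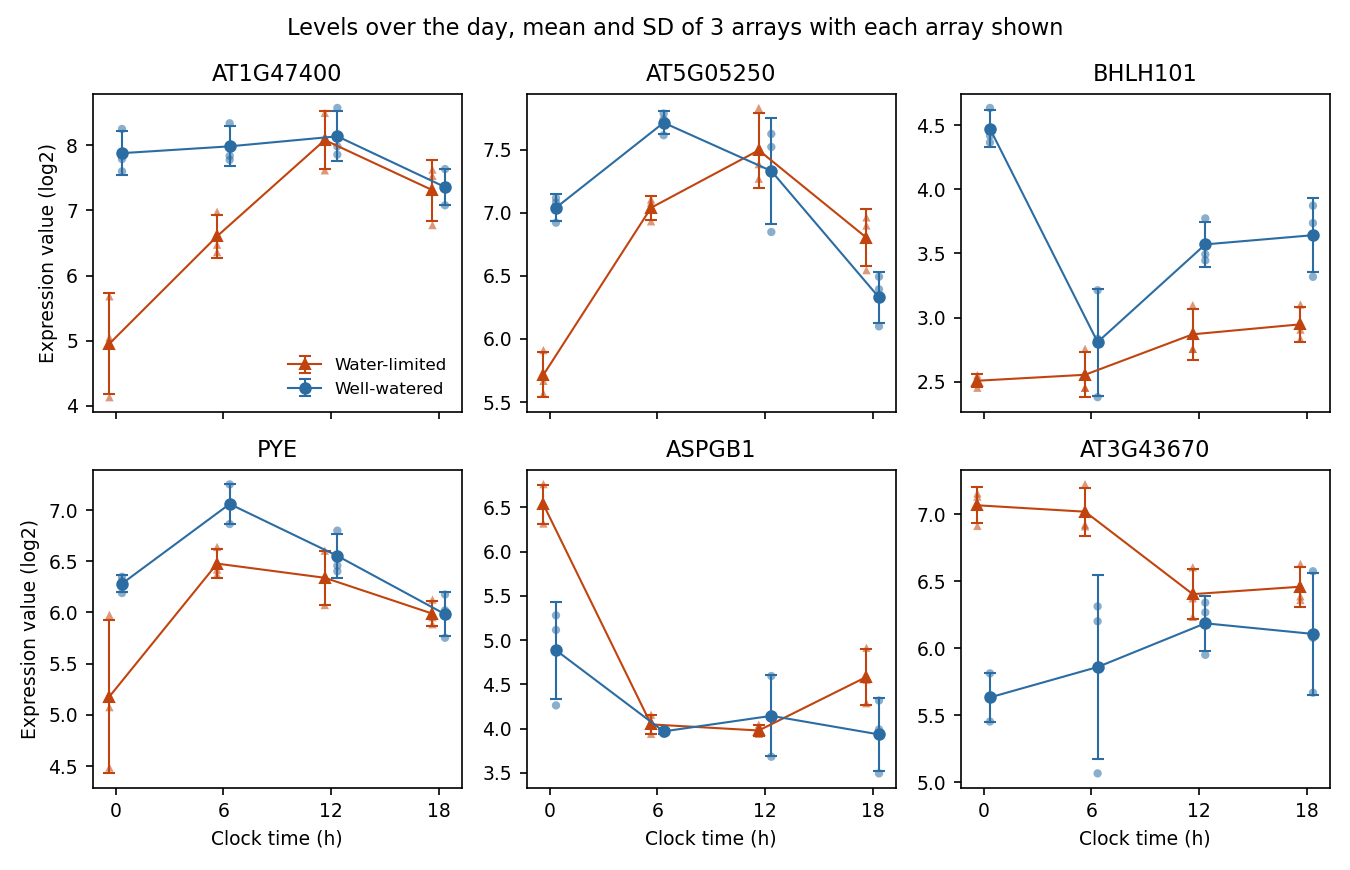
Log2 expression values against clock time for 4 iron-response genes (AT1G47400, AT5G05250, BHLH101, PYE), ASPGB1 and AT3G43670; large symbols with bars are means and SD of 3 arrays, small symbols single arrays, with triangles for water-limited and circles for well-watered plants. The gap between the regimes is widest at midnight in each panel, while at midday the means of AT1G47400 are 8.08 and 8.14.

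Among the 4 named genes that rose, the first was ASPGB1 (AT3G16150), a potassium-dependent asparaginase that frees nitrogen from asparagine. Its values were 6.32, 6.52 and 6.76 in water-limited arrays, against 4.26, 5.11 and 5.28 in well-watered arrays. The lowest water-limited array was above the highest well-watered one by about 1 log2 unit. The difference was 1.65 (SE 0.25, 3.13-fold higher, adjusted p = 0.00278). At the other times ASPGB1 was low in both regimes, with means between 3.98 and 4.58 in water-limited and between 3.93 and 4.14 in well-watered plants, and its differences were 0.08 at pre-dawn, -0.17 at midday and 0.65 at late day. ASPGA1, the other asparaginase of the family, differed by 0.13 at midnight (adjusted p = 0.78), and the lysine catabolism gene AT4G33150 by -0.76 (adjusted p = 0.246). Of the 27 genes of nitrogen and asparagine metabolism, these 3 were tested and 1 was called, where 0.386% of all tested probe sets were called.

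AT3G43670, which encodes a copper amine oxidase, an enzyme that oxidises polyamines, had 7.13, 7.15 and 6.91 in water-limited arrays, against 5.45, 5.63 and 5.81 in well-watered arrays. The groups were separated by more than 1 log2 unit, and the difference was 1.43 (SE 0.25, adjusted p = 0.0102). AT3G43670 also rose at pre-dawn, by 1.16 (adjusted p = 0.0102), with differences of 0.22 at midday and 0.35 at late day that were not called. AT3G23170 had 5.55, 5.63 and 5.22 in water-limited arrays, against 4.24, 4.21 and 4.63 in well-watered arrays, a rise of 1.11 (SE 0.22, adjusted p = 0.0271). AT1G10690, of the SIAMESE-related inhibitors of cyclin-dependent kinases, had 6.09, 5.84 and 6.15 in water-limited arrays, against 5.16, 5.16 and 5.55 in well-watered arrays, a rise of 0.74 (SE 0.14, adjusted p = 0.0168). In both genes the 3 water-limited arrays were above all well-watered ones. Of these genes, AT3G23170 was also called at pre-dawn (1.03, adjusted p = 0.00942) and AT1G10690 was not (0.29, adjusted p = 0.209).

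Beside the iron genes, the 14 named genes that fell included members of the sugar-repressed list and of the HHO/NIGT1 family, 1 of each. AT3G15450, a transcript repressed by sugar, had 8.90, 9.99 and 10.12 in water-limited arrays, against 11.21, 10.80 and 10.53 in well-watered arrays. Water-limited replicate 1 was far below the other 2 arrays of its group. The difference was -1.17 (SE 0.25, 2.26-fold lower, adjusted p = 0.0459). The differences of AT3G15450 were -0.84 at pre-dawn (adjusted p = 0.049), -0.69 at midday and -1.17 at late day (adjusted p = 0.0651). The list of sugar-repressed and starvation genes had 34 members, 9 of them tested, and AT3G15450 was the 1 called. Of these 9, 7 had differences below 0, and the median was -0.33. Over all tested probe sets, 53.9% of differences were below 0 and 0.386% were called.

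AT2G20670, the member of the sugar-repressed list with the lowest difference, had 2.59, 3.65 and 3.17 in water-limited arrays, against 6.30, 6.01 and 3.77 in well-watered arrays. Well-watered replicate 3 lay close to the water-limited arrays, and the difference of -2.22 (SE 0.50) had an adjusted p of 0.0529. This gene was called at late day, with a larger difference of -3.24 (adjusted p = 0.00361). AKINBETA1, a beta subunit of the SnRK1 energy-sensing kinase, had 7.40, 8.04 and 7.78 in water-limited arrays, against 8.77, 8.32 and 8.36 in well-watered arrays, a difference of -0.75 (adjusted p = 0.0723). The groups of AKINBETA1 did not overlap, and it was called lower at pre-dawn (-0.64, adjusted p = 0.0338). MGL (methionine gamma-lyase) and IVD (isovaleryl-CoA dehydrogenase), which break down amino acids, were the members with differences above 0, at 0.73 and 0.26 (adjusted p = 0.315 and 0.787).

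AT4G37180, a MYB-related gene of the HHO/NIGT1 family of repressors that act in nitrate and phosphate responses, had 3.57, 3.87 and 3.01 in water-limited arrays, against 5.90, 5.36 and 4.82 in well-watered arrays. The water-limited arrays all lay below 4, and the difference was -1.87 (SE 0.38, 3.67-fold lower, adjusted p = 0.0331). Of 7 genes in the family, 4 were tested, 1 fell and 3 were not called, where 0.277% of all tested probe sets were called lower. AT1G25550 had 5.65, 6.55 and 6.75 in water-limited arrays, against 8.12, 7.86 and 7.26 in well-watered arrays (difference -1.43, adjusted p = 0.112). AT1G68670 had 6.41, 6.87 and 7.05 against 7.96, 7.84 and 7.68 (difference -1.05, adjusted p = 0.11). Neither pair of groups overlapped, and both genes were called lower at pre-dawn (-2.28, adjusted p = 0.00266, and -1.39, adjusted p = 0.00698). AT1G49560 differed by 0.02 at midnight and was also called lower at pre-dawn (-1.09, adjusted p = 0.0277). Of the 4 genes, 3 were lower at midnight without overlap, against 9.48% of all tested probe sets. At pre-dawn 3 of the 4 were called lower, against 3.14% of all tested probe sets. The list was chosen with earlier results of these data known. AT4G37180 was not called at pre-dawn (-0.44, adjusted p = 0.511) or at late day (-1.62, adjusted p = 0.0895). The median of the 4 was -1.24 at midnight, -1.24 at pre-dawn, -0.32 at midday and -0.65 at late day.

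Several of the other named genes that fell encode enzymes. AT3G47800, which encodes a galactose mutarotase-like enzyme, had 7.01, 6.68 and 6.59 in water-limited arrays, against 8.25, 8.37 and 7.83 in well-watered arrays, a fall of 1.39 on the log2 scale (SE 0.29, adjusted p = 0.0365). AT3G17770, a dihydroxyacetone kinase gene, had 6.31, 6.06 and 6.03 against 6.92, 6.86 and 7.05, with a small but tight difference of -0.81 (SE 0.13, adjusted p = 0.00406). AT1G75960, of the AMP-binding acyl-activating enzymes, had 2.82, 3.42 and 5.17 against 5.76, 6.02 and 5.20. Water-limited replicate 3 and well-watered replicate 3 of AT1G75960 nearly touched, and the difference was -1.86 (SE 0.36, adjusted p = 0.0238). ATPMEPCRB (AT4G02330), a pectin methylesterase that alters wall pectin, had 3.98, 4.03 and 4.53 against 5.68, 5.59 and 5.10 (difference -1.28, adjusted p = 0.0456). Of 34 genes of wall loosening and modification, 8 were tested and ATPMEPCRB was the 1 called, with 4 differences above and 4 below 0. Over all tested probe sets 0.386% were called.

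The other named genes that fell have varied roles. AT5G14120, of the major facilitator family of transporters, had 10.15, 10.59 and 10.38 in water-limited arrays, against 11.41, 11.44 and 11.08 in well-watered arrays. It fell by 0.94 on the log2 scale (SE 0.17, adjusted p = 0.0106). ATERDJ2B, a J-domain protein of the endoplasmic reticulum, fell by 1.06 (adjusted p = 0.0168), AT1G09390, a GDSL-type lipase gene, by 1.12 (adjusted p = 0.0485), and AT1G73920, a lipase-like gene, by 0.67 (adjusted p = 0.0457), which was the smallest called difference. AT1G76240 fell by 0.78 (adjusted p = 0.0445). AT2G30600, a BTB/POZ-domain gene, had 7.43, 7.91 and 7.41 against 8.76, 8.51 and 8.22, a fall of 0.91 (SE 0.17, adjusted p = 0.0173). In these 6 genes every water-limited array was below every well-watered array. A further probe set of AT2G30600 differed by -0.89 (adjusted p = 0.0514) and was not called.

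The mean of the called AT2G30600 probe set in water-limited plants was 7.58 at midnight, 5.58 at pre-dawn, 4.65 at midday and 4.81 at late day. In well-watered plants it was 8.50, 5.61, 4.88 and 5.42 at the same times, so this probe set peaked at midnight in both regimes and reached a lower level at that peak under water limitation. Among the 33 probe sets that fell, 20 had their highest well-watered mean at midnight and 8 their highest water-limited mean, against 25.7% and 21.3% of all tested probe sets. The same midnight arrays enter both the call and the place of the peak, so these counts are a description. Of the 14 named genes that fell, 9 had their highest well-watered mean at midnight.

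Of the 28 called probe sets without a gene in the annotation, 9 were higher and 19 lower, with differences between -2.09 and 2.02. The higher ones included 251109_at, with 11.51, 11.16 and 10.58 in water-limited arrays, against 9.01, 9.15 and 9.04 in well-watered arrays (difference 2.02, adjusted p = 0.00283), and 264261_at, with a difference of 1.81 (adjusted p = 0.000907). The lower ones included 257062_at, with 6.87, 7.39 and 6.30 against 9.15, 8.79 and 8.88 (difference -2.09, adjusted p = 0.00592), and 249327_at, with a difference of -2.08 (adjusted p = 0.0485). In all 4 the groups did not overlap.

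The calls depended on the arrays in the model. AT1G47400, AT5G05250, ASPGB1 and AT3G17770 were called in each of 24 models that left out 1 array, with adjusted p of at most 0.00231, 0.014, 0.0236 and 0.0253. The other 14 named genes were not called without well-watered midnight replicate 1, well-watered midnight replicate 2 or water-limited midnight replicate 1, where the highest adjusted p was 0.322, 0.17 and 0.174 and the counts of called probe sets were 16, 16 and 20. Without well-watered midnight replicate 3 or water-limited midnight replicate 2 the counts were 113 and 111, without water-limited pre-dawn replicate 2 it was 100, and without water-limited midday replicate 1 or late-day replicate 2 it was 70 each. It was 30 without replicate 3 of the well-watered midday group. With the 6 midnight arrays alone, limma called 0 probe sets, with 1274 at an unadjusted p below 0.05; AT1G47400, AT5G05250 and AT3G43670 then had an adjusted p of 0.0559.

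Beyond the called genes, those with the largest differences, an unadjusted p below 0.01 and no overlap are given as values. The highest was AT1G68875, with 6.24, 5.10 and 5.28 in water-limited arrays, against 2.2, 2.69 and 3.98 in well-watered arrays (difference 2.58, SE 0.87, adjusted p = 0.18), where 1 well-watered array lay at the floor of the table. AT5G22430 had 6.70, 7.56 and 7.50 against 4.43, 3.82 and 6.55 (difference 2.32, adjusted p = 0.123). The well-watered arrays of both were scattered. Others on the higher side were AT3G62960 and AT4G33040, both CC-type glutaredoxins, at 2.15 and 1.92, AT2G20870 at 1.95, the sucrose transporter SWEET13 at 1.90, AT4G19430 at 1.87, AT3G57680 at 1.80, AT5G62210 at 1.76 and AT1G80130 at 1.73, with adjusted p between 0.0795 and 0.172.

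The genes lowest by the same rule were not called either. AT5G64120, a class III peroxidase, had 5.41, 6.73 and 6.92 in water-limited arrays, against 8.82, 7.63 and 7.79 in well-watered arrays (difference -1.73, adjusted p = 0.0766). The chitinase gene CHI (AT2G43570) had 4.78, 5.10 and 5.78 against 7.69, 6.22 and 7.22 (difference -1.82, adjusted p = 0.205). AT3G22060, a cysteine-rich secreted protein gene, differed by -1.69 (adjusted p = 0.074) and AT4G20860, a berberine bridge enzyme-like gene, by -1.49 (adjusted p = 0.111). In AT5G64120 and AT3G22060, water-limited replicate 1 was the lowest and well-watered replicate 1 the highest array. AT5G19120, an aspartyl protease-like gene, differed by -2.02, AT1G49500 by -1.98, the glutaredoxin AT4G15660 by -1.67, AT5G52760, a heavy-metal-domain gene, by -1.60 and AT1G13650 by -1.54, with adjusted p between 0.108 and 0.177.

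The 23 gene lists, cell type markers apart, hold 642 entries, of which the annotation names 146; 102 genes were tested, and 4 lists had no tested member. No member of the flavonoid and anthocyanin pathway was called at midnight, although all 7 tested members had differences above 0, under both other scalings too, with a median of 1.03. UF3GT, a flavonoid glycosyltransferase, had 7.60, 6.40 and 6.97 in water-limited arrays, against 4.50, 5.31 and 6.02 in well-watered arrays (difference 1.71, adjusted p = 0.123). DFR (dihydroflavonol reductase) had 9.08, 7.82 and 6.92 against 6.33, 6.45 and 6.96 (difference 1.36, adjusted p = 0.235). The groups did not overlap in UF3GT, while water-limited replicate 3 of DFR was as low as the well-watered arrays. At pre-dawn 6 of the 7 were called higher, with a median of 2.97, where 4.1% of all tested probe sets were called higher.

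The CC-type glutaredoxins, small redox proteins of which several respond to nitrate, had 10 tested members and no call. They split in direction, with 4 higher and 4 lower among the 8 whose groups did not overlap, against 5.97% higher and 9.48% lower of all tested probe sets. AT3G62960 had 6.42, 6.69 and 7.28 in water-limited arrays, against 4.09, 4.68 and 5.17 in well-watered arrays (difference 2.15, adjusted p = 0.118). AT4G15660 had 2.32, 3.09 and 2.30 against 5.07, 4.14 and 3.51 (difference -1.67, adjusted p = 0.115). These are close homologues, and AT4G15660 lies in a cluster of near-identical genes whose transcripts may share probes, so its level is uncertain.

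Sugar transport had 8 tested genes and no call. SWEET13 had 9.42, 9.01 and 9.16 in water-limited arrays, against 5.94, 7.66 and 8.30 in well-watered arrays (difference 1.90, adjusted p = 0.172), and SWEET2, a vacuolar sugar transporter, had 4.03, 5.08 and 4.57 against 6.15, 6.40 and 5.43 (difference -1.43, adjusted p = 0.0921). Neither pair of groups overlapped. Of the 8 genes, 4 were higher and 1 lower without overlap, against 5.97% higher and 9.48% lower of all tested probe sets. Autophagy and senescence had 15 tested genes and no call, with 12 differences above 0 and a median of 0.21. Starch synthesis and breakdown had 4 tested genes and no call, and the starch synthesis gene APL3 differed by 0.63 (adjusted p = 0.489).

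Of the 40 genes listed for their response to abscisic acid and dehydration, 4 were tested and none was called: the differences were 0.79 for COR15B, 0.56 for COR47, 0.15 for COR15A and -0.35 for LTI30, each with overlapping groups. COR15B, a chloroplast cold and dehydration protein, had 10.70, 9.80 and 10.14 in water-limited arrays, against 8.73, 9.67 and 9.86 in well-watered arrays. The lists of abscisic acid synthesis and receptors (26 genes), proline and raffinose metabolism (16) and aquaporins (17) had no tested member. The 4 tested clock genes and outputs, none called, lay above 0 under all 3 scalings, at 0.25 for GI, 0.46 for COR27, 0.64 for AT5G52660 and 0.77 for AT4G33980. The 4 tested genes of salicylate and defence lay below 0, none called, with a median of -1.19; one of them, BSMT1, was at the floor in 4 of the 6 arrays. The 7 photosystem genes had a median of -0.01 and ran between -0.24 and 0.50, none of them called.

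**Figure D3:**
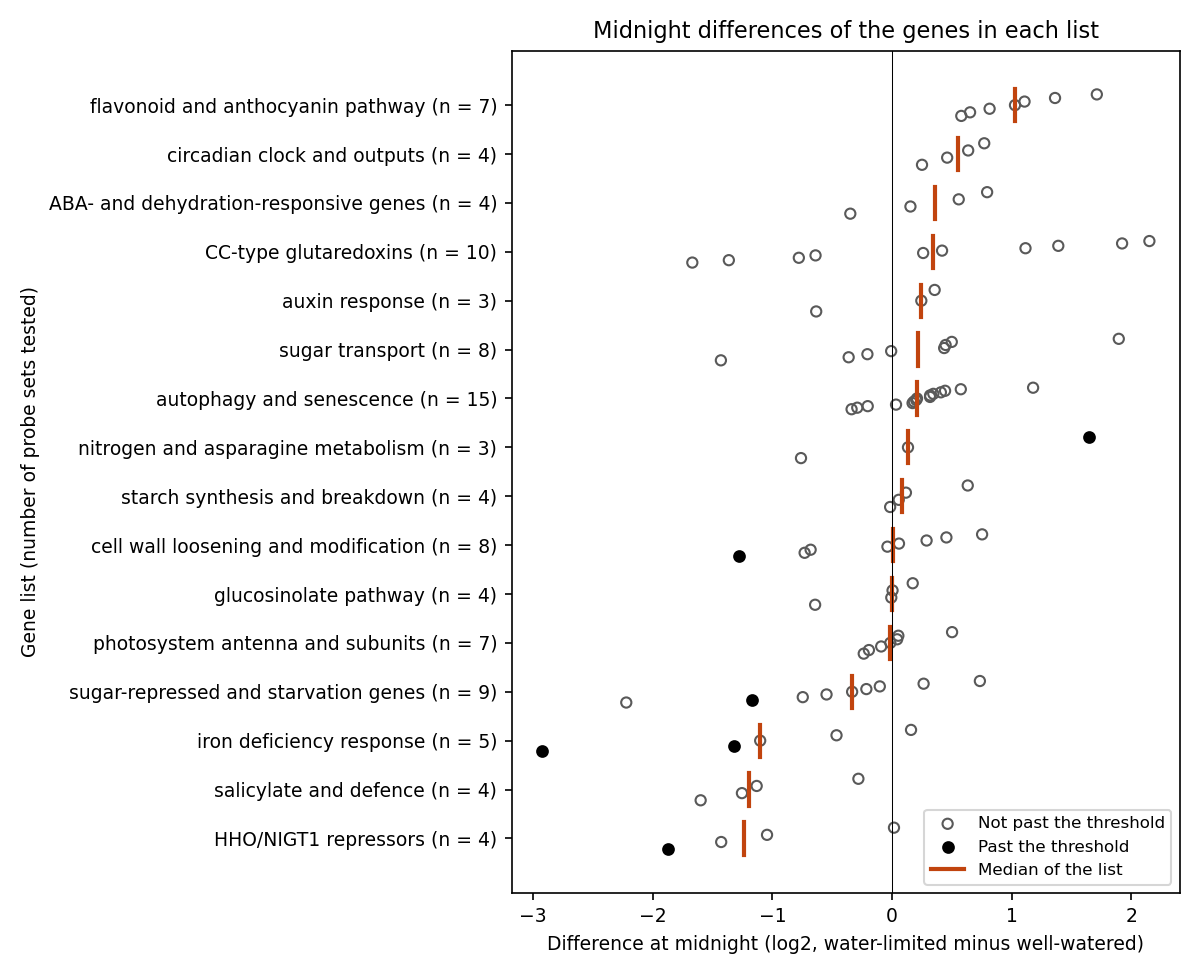
Differences at midnight (log2, water-limited minus well-watered) of the tested members of each gene list with at least 3 of them; filled points are past the threshold, open points are not, and the bar is the median of the list. The 6 filled points lie in 5 lists, and the iron, HHO/NIGT1 and salicylate lists have medians below -1.

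At pre-dawn, 6 h later on the clock, the effect of water limitation was broader. There 864 probe sets were called (7.24%; 4.1% higher and 3.14% lower). At midday limma called 0 (0%), with 593 (4.97%) at an unadjusted p below 0.05, and at late day it called 25 (0.21%; 0.176% lower). Arrays are not shared between the times, but the estimate of the spread is. Of the 46 probe sets called at midnight, all had the same sign at pre-dawn, and 29 were called at both times in the same direction, 10 higher and 19 lower. The 29 are 63% of the midnight calls and 3.36% of the pre-dawn calls. At late day 36 of the 46 had the same sign and 4 were called, all lower, which is 8.7% of the midnight calls and 16% of those at late day. At midday 35 had the same sign and none was called. The share of all tested probe sets with the same sign was not counted, so these counts of signs are a description.

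The 9 named genes called at both midnight and pre-dawn were AT1G47400, AT5G05250, AT3G17770, AT3G43670, AT5G14120, AT3G23170, AT3G47800, AT1G73920 and AT3G15450. Of the 46 probe sets, 40 had a larger difference in size at midnight than at pre-dawn, and the median size was 1.31 at midnight, 0.83 at pre-dawn, 0.21 at midday and 0.49 at late day. The probe sets were chosen by their midnight values, which favours a larger size there, so these sizes are a description. Across all tested probe sets the Pearson correlation of the midnight difference was 0.58 with that at pre-dawn, 0.25 with midday and 0.47 with late day; genes are not independent, and the times share the array design and its probes. The SD of all differences was 0.35 at midnight, 0.46 at pre-dawn, 0.24 at midday and 0.33 at late day.

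**Figure D4:**
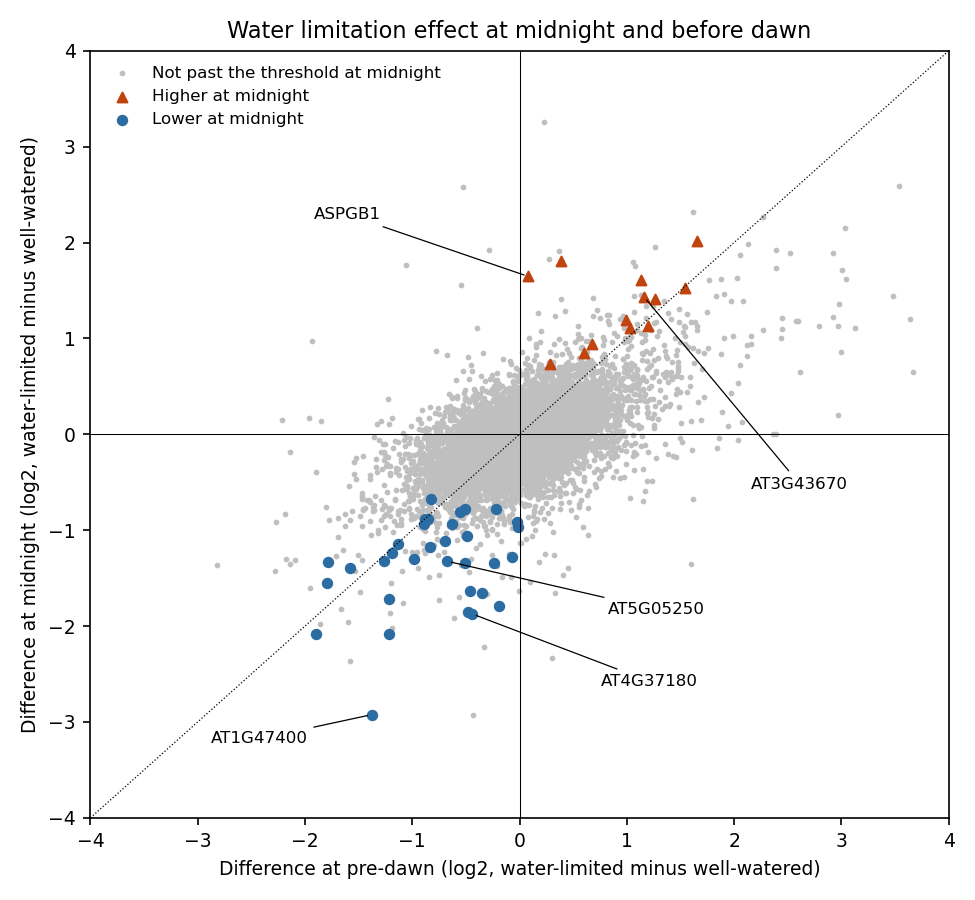
Each point is 1 of 11926 probe sets, with the difference at pre-dawn on the x axis and at midnight on the y axis (log2, water-limited minus well-watered); triangles and circles are the 13 higher and 33 lower calls at midnight, and the dotted line marks equal differences. All 46 called points have the same sign at both times, and ASPGB1 lies near 0 on the pre-dawn axis.

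Whether the midnight effect differed from that at the other times was tested as the midnight difference minus the mean of the 3 other differences. Of 11926 probe sets, 2 were called (0.0168%), both lower, and 475 (3.98%) had an unadjusted p below 0.05. They were the iron-response genes AT1G47400, at -2.43 (SE 0.38, adjusted p = 0.0332), and AT5G05250, at -1.31 (SE 0.22, adjusted p = 0.0332). The count was 0 without the 6 late-day arrays and in 10 of 24 models that left out 1 array, with smallest adjusted p between 0.0513 and 0.206. With the RNA integrity controls as covariates AT1G47400 kept its call (adjusted p = 0.0253) and AT5G05250 did not (adjusted p = 0.0761). The arrays whose removal left no call were well-watered midnight replicates 1, 2 and 3, water-limited midnight replicates 1 and 2, well-watered pre-dawn replicates 1 and 2, water-limited pre-dawn replicates 2 and 3, and well-watered late-day replicate 1. AT5G05250 alone also lost its call without well-watered late-day replicate 2 (adjusted p = 0.0592) or water-limited late-day replicate 3 (adjusted p = 0.0634). The same held without well-watered pre-dawn replicate 3 (adjusted p = 0.0629) or water-limited pre-dawn replicate 1 (adjusted p = 0.0716). With all 24 arrays, the next among probe sets with 1 gene was ASPGB1, at 1.46 (adjusted p = 0.152).

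The next genes by their p in this test were not called. AT3G17770 had a value of -0.64 (adjusted p = 0.499), AT5G22700 of -1.24 (adjusted p = 0.526), AT1G78010 of -0.66 (adjusted p = 0.565), and AT1G75960 and AT1G68410 of -1.61 and 0.53 (adjusted p = 0.794 each). QQS, an orphan gene linked to starch content, had 6.27, 6.07 and 5.89 in water-limited arrays at midnight, against 6.42, 6.67 and 7.26 in well-watered arrays. The midnight difference of QQS was -0.70, while those at pre-dawn, midday and late day were 0.46, 0.86 and 0.67. The test gave -1.37 for QQS (adjusted p = 0.904) and -0.63 for AT2G41980 (adjusted p = 0.904).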

How the data were processed

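The deposited table holds log2 expression values that the authors computed with GCRMA, per the submitters' processing notes. Its version was not given in the sources used here. Total RNA came from a Trizol extraction and was biotin-labelled for Affymetrix arrays, per the labels' protocols. The lowest value was 2.2, and 25.5% of values lay within 0.001 of it. No further normalization was applied. The 64 control probe sets were left out, and 11926 probe sets with a value of 5 or more in at least 3 of 24 arrays were tested.

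Limma 3.58.1 in R 4.3.3 fitted 1 mean per group of 3 arrays (8 groups) with a shared, moderated spread (16 residual and 4.57 prior degrees of freedom). Two-sided p-values were adjusted by Benjamini-Hochberg over all tested probe sets of a contrast. The procedure was run on simulated data with independent noise, the same spread in every group and no floor. That run does not cover the unequal spread of these groups or their values at the floor. The number of arrays limits the precision, and since the sources do not describe the replicates further, p-values measure the spread between these arrays. Array groups came from the labels.

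Genes were named from the platform annotation, updated through TAIR10.1 for names only: 13513 of 22746 probe sets had 1 gene, 503 several and 8730 none. Probe sets without a name include many well-known genes. The comparison, the gene lists and the tests were chosen with earlier results of these data known. Named genes are all called probe sets with 1 gene; as values, the 10 highest and 10 lowest others with unadjusted p below 0.01 and no overlap; tested list members; the 10 with the smallest p for the difference between times; and at most 2 higher and 2 lower probe sets without a gene. BHLH101 was added after its values were seen. Filters, moderation, scaling, weights, a replicate block, RNA quality covariates and subsets of arrays were varied.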

Additional observations from a re-analysis of the deposited data

Results flagged for a closer look

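In 2 genes the effect of water limitation at midnight differed from its mean at the other 3 times, by the test of the difference itself in limma. AT1G47400, an IRONMAN-type peptide gene, had a midnight difference of -2.92, against -1.38 at pre-dawn, -0.06 at midday and -0.05 at late day, so that midnight minus the mean of the others was -2.43 (adjusted p = 0.0332). AT5G05250, a gene induced by iron deficiency, had -1.32 at midnight, against -0.67, 0.16 and 0.47, and its value in that test was -1.31 (adjusted p = 0.0332). In both genes 3 of 3 water-limited arrays lay below all 3 well-watered arrays at midnight. A larger gap was not seen at another time in either gene. Both calls were lost without the late-day arrays (adjusted p = 0.302 for AT1G47400 and 0.432 for AT5G05250). They were also lost with a replicate block (adjusted p = 0.0568 and 0.294) and in 10 of 24 models that left out 1 array. With the RNA quality covariates AT5G05250 alone lost its call (adjusted p = 0.0761).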

How the results depend on the processing

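Against 46 called probe sets at midnight, the count was 37 without a filter, 29 with a stricter filter (mean of at least 6), 68 with a trend and robust moderation, 48 with median centring and 49 with quantile normalization. It was 70 with array weights, 13 among probe sets with 1 gene and 127 with the RNA quality controls as covariates. It was 35 without the late-day arrays, 0 with the midnight arrays alone, and 16 to 113 without 1 array. Only 24 of the 37 without a filter were among the 46, against 37 of 48 with median centring and 40 of 49 with quantile normalization. Without a filter 10 of the 18 named genes kept their call. AT1G09390, AT1G75960, AT1G76240, AT3G23170 and AT3G47800 lost it, as did AT4G37180, AT3G15450 and ATPMEPCRB (adjusted p = 0.114, 0.116 and 0.116). For the difference between midnight and the other times, 2 probe sets were called, against 8 without a filter, 0 without the late-day arrays and 0 to 3 without 1 array; the count was 2 or 3 under the other settings but the block. With the RNA quality covariates 1 of the 2 was shared: AT5G05250 lost its call (adjusted p = 0.0761) and 257062_at gained one. The cause of these changes was not tested. The labels do not say whether equal replicate numbers mark arrays handled together. Deviations of same-numbered midnight arrays correlated at -0.54, -0.14 and -0.20, and no midnight array correlated best with its own number. With so few arrays per group, such correlations cannot show whether arrays were paired. With the replicate block, 8 probe sets were called at midnight (3 higher, 5 lower) and 0 for the difference; AT1G47400, AT5G05250 and ASPGB1 had adjusted p of 0.00154, 0.026 and 0.0196. No named gene changed sign in a called value, while the signs of differences near 0 in the sugar transport, starch, glucosinolate and photosystem lists moved with the scaling. Values at the floor bound weakly expressed genes, which limits differences there and can narrow their spread.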

Other observations

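Without the filter on low values, limma called 37 of 22746 probe sets at midnight, against 46 of 11926 (0.386%) with it. Among the 37, 11 had failed the filter, and 5 of these 11 have a gene. Besides BHLH101 these were AT5G44050, a MATE-type efflux transporter gene, at -1.62 (adjusted p = 8.67e-07), AT3G49160, a pyruvate kinase family gene, at 1.58 (adjusted p = 0.0233), AT1G02460, a polygalacturonase-type gene, at 0.86 (adjusted p = 0.000102), and AT1G66830, a receptor-like kinase gene, at 0.82 (adjusted p = 8.14e-08). The highest value of any of these 4 in the 24 arrays was 4.68, so all lie low on the scale of the table, whose floor is 2.2. These genes were chosen after their values were seen.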
